A study of Rattus norvegicus with 8 samples.

Results

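Transcripts of 9 genes that act in sympathoadrenal identity or Notch signalling were followed in a rat PC12 line with and without induction of mutant huntingtin. The genes were Phox2a, Gata3, Hoxc8, Nr2f2, Id1, Id2, Id3, Dll3 and Dlk1, and every probe set that the array annotation assigned to 1 of them alone was taken, 12 of the 8799 probe sets on the array. All 12 lay above the filter on low signals that left 6129 probe sets for testing. The 9 genes were chosen with the difference between induced and uninduced cells already known, so their differences are given as a description, without a test of their own.

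PC12 cells come from a rat adrenal medullary tumour and keep traits of chromaffin cells and of sympathetic neuron precursors. The line Htt14A2.5 has a stably inserted, inducible construct for mutant exon 1 of human huntingtin, in truncated form, and the uninduced cells have the same insert. The 4 induced samples were given ponasterone, a steroid inducer, for 48 h, and the 4 uninduced samples of the same line are marked in their titles as without it. The free-text label of all 8 samples mentions induction, and the titles alone set the groups. Htt14A2.5 is 1 line, and no line without the huntingtin insert is included here. Responses to ponasterone itself and to mutant huntingtin therefore cannot be told apart. The labels do not say whether the samples were separate cultures, so the spread between them may be technical.

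In development, Phox2a and Gata3 are transcription factors of the sympathoadrenal lineage, which forms sympathetic neurons and chromaffin cells from the neural crest. Id proteins have a helix-loop-helix domain but no DNA-binding region, and they hold back basic helix-loop-helix (bHLH) factors by pairing with their partners. In Notch signalling, a ligand on one cell activates a receptor on its neighbour, which is cut by gamma-secretase and turns on bHLH repressors of the Hes family. Dll3 and Dlk1 are related in structure to the Delta ligands and are known mainly as inhibitory or non-canonical members of that family. Dlk1 is also a surface protein of chromaffin cells.

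Of the 9 genes, 7 had a promoter window in the RefSeq table used here. In 4 of them the window held the 200 bases before the gene's first annotated base. These 4 windows are shown because they hold only bases before the gene, and they include all 3 Id genes. They are the reference sequence of rat build GRCr8: Phox2a at chr1:165590557-165590756, plus strand, Id1 at chr3:161671325-161671524, plus strand, Id2 at chr6:47470996-47471195, minus strand, and Id3 at chr5:153656053-153656252, plus strand. Each reads 5' to 3' along the gene's strand. Capitals mark CCAAT and GGGCGG on either strand.
Phox2a: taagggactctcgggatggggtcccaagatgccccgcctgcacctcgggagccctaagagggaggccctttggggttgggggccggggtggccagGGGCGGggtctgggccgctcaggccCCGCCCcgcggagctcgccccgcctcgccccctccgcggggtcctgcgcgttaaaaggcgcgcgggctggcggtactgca
Id1: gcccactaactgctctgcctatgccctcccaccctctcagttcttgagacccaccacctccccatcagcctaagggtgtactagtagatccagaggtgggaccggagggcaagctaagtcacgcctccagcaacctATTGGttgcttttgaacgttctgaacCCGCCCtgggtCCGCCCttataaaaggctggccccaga
Id2: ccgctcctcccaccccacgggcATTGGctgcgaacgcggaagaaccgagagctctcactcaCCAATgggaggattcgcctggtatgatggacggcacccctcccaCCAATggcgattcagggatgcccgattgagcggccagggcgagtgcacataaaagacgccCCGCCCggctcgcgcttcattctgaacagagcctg
Id3: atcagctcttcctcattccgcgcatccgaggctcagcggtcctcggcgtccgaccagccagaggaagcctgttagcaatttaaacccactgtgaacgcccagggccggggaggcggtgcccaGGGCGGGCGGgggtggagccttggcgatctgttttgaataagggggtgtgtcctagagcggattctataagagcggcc

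The letters CCAAT occurred 3 times in the Id2 window, 1 time in that of Id1 and not in those of Phox2a or Id3, and 29.5% of the 20884 windows of this length hold them. GGGCGG, the GC box, occurred in all 4 windows, 2 times each in Phox2a, Id1 and Id3 and 1 time in Id2, and 25.1% of all windows hold it. In Id3 the 2 copies overlap. The Id1 window also held TATAAA, 20 bases before the gene (11.9% of all windows). All searches covered both strands. CANNTG, the E-box bound by bHLH factors, was not found in the 4 windows and is held by 58.2% of all windows. The Rbpj site GTGGGAA of Notch signalling (4.01% of all windows) was not found either. Nor was the Egr site GCGNGGGCG (3.28%), nor TGACG of cyclic AMP response elements (15.0%), nor the AP-1 site TGANTCA (5.23%). GC content was 75.0% in Phox2a, 57.5% in Id1, 63.0% in Id2 and 62.0% in Id3, with a median of 50.5% over all windows. Dll3, Dlk1 and Gata3 have windows that lie partly or wholly inside the annotated gene and are not printed. Hoxc8 and Nr2f2 are named only. In GRCr8 the genes span chr1:92689577-92698125 (Dll3), chr1:133419161-133434290 (Nr2f2), chr1:165590757-165595122 (Phox2a), chr3:161671525-161672691 (Id1), chr5:153656253-153657860 (Id3), chr6:47469162-47470995 (Id2), chr6:134192491-134199779 (Dlk1), chr7:136006407-136008973 (Hoxc8) and chr17:73544234-73575670 (Gata3).

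The values are scaled, linear array signals, 1 per probe set and array. The median signal of an array lay between 97.5 and 134.9 in induced samples and between 106.3 and 127.0 in uninduced samples. Background was read from 38 control probe sets, whose 95th percentile lay between 102 and 137 on the induced arrays and between 128 and 183 on the uninduced arrays. The beta-actin 3' over 5' signal ratio was 0.628 on the array of induced replicate 3 and between 1.05 and 1.49 on the other 7. Of the chromaffin markers, Chgb, a granin, had signals from 9331 to 13494 and Scg2 from 513 to 979, both above background on all 8 arrays. The probe sets for the catecholamine enzymes Dbh and Ddc lay below the background percentile on all 8 arrays, and that of Th exceeded it only on uninduced replicate 4.

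All genes but Id2, 8 of the 9, had lower mean signals in induced cells. Log2 differences, induced minus uninduced, ran from -1.08 for Nr2f2, which was above background on 0 of the 4 induced arrays, to 0.42 for Id2, with a median of -0.64 over the 12 probe sets and -0.05 over all 6129. With limma and Benjamini-Hochberg adjustment over all 6129 probe sets, 9 of the 12 were past an adjusted p of 0.05, all lower in induced cells, and these 9 were also the ones whose groups did not overlap. Over all tested probe sets, 7.06% were past this threshold, 2.97% lower and 4.1% higher, and the groups did not overlap in 13.6%, with 7.11% lower and 6.48% higher. The genes were chosen on this contrast, so nothing follows from that comparison of shares. In a bulk sample, fewer cells that hold a transcript and less of it per cell cannot be told apart.

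**Figure D1:**
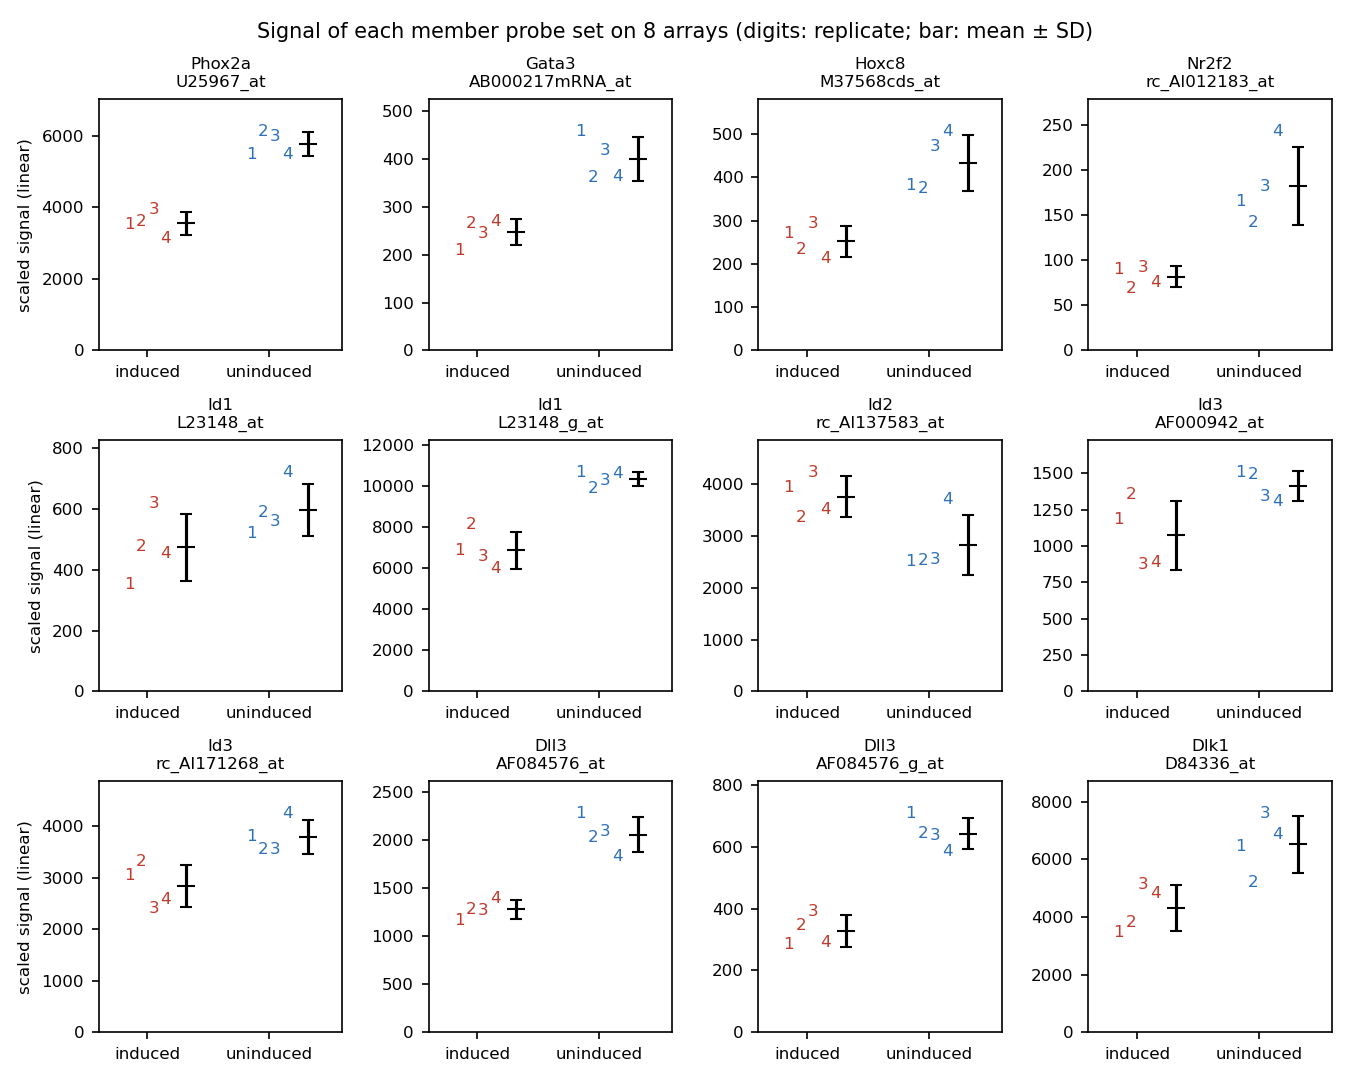
Scaled linear signal of each of the 12 probe sets (y axis from 0) in induced and uninduced samples, with a digit for each replicate and the mean ± SD of 4 samples as a bar. Phox2a, Gata3, Hoxc8, Nr2f2, both Dll3 probe sets, Dlk1, 1 Id1 and 1 Id3 probe set show no overlap between groups, and Id2 is raised in uninduced replicate 4 (3698) above the other 3 uninduced samples.

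Phox2a is a homeodomain factor that drives the noradrenergic programme, including the genes of catecholamine synthesis. Its signal was 3535, 3606, 3936 and 3132 in induced replicates 1 to 4, against 5491, 6116, 5980 and 5472 in uninduced replicates 1 to 4. The highest induced sample stood 1535 signal units under the lowest uninduced one, and spread within a group was small, with SDs of 331 and 332. Phox2a averaged 3552 ± 331 in induced and 5765 ± 332 in uninduced cells (SD, n = 4 each), and the log2 difference of -0.70 ± 0.09 (SE) corresponds to 61.5% of the uninduced level. Its mean signal was above that of 94.7% of all probe sets. In the 17 alternative settings the difference stayed between -0.75 and -0.64.

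Gata3, a zinc finger factor needed for survival and noradrenergic differentiation of sympathetic neurons in mice, had signals of 209, 265, 245 and 269 in induced samples and 457, 361, 417 and 365 in uninduced samples. The groups did not overlap, and the nearest samples were 92.1 units apart. Its means were 247 ± 27.3 in induced and 399.9 ± 46.1 in uninduced cells (SD, n = 4 each), and the log2 difference was -0.68 ± 0.15. The difference stayed between -0.76 and -0.61 under all alternatives, but was not past the threshold without uninduced replicate 1 (-0.62), without uninduced replicate 3 (-0.66), without replicate 2 of both groups (-0.76) or with the replicate number as a block.

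Hoxc8 is a homeobox gene of thoracic segment identity. Its signals were 270, 234, 293 and 213 in induced samples, against 381, 375, 472 and 506 in uninduced samples. All induced samples lay below all uninduced ones. The means were 252 ± 35.8 in induced and 433 ± 65.4 in uninduced cells (SD, n = 4 each), and the log2 difference was -0.76 ± 0.16. It was not past the threshold without uninduced replicate 3 (-0.72), with median centring over all probe sets (-0.73) or without replicate 2 of both groups (-0.79).

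Nr2f2, also called COUP-TFII, is an orphan nuclear receptor that acts mostly as a repressor. Its signals were 90.1, 68.5, 92.5 and 75.7 in induced samples and 165, 142, 181 and 243 in uninduced samples. On no induced array did it exceed the background percentile of that array, and it did so on 3 of the 4 uninduced arrays. It averaged 81.7 ± 11.5 in induced and 183 ± 43.2 in uninduced cells (SD, n = 4 each). The log2 difference of -1.08 ± 0.23 was the largest in size of the 12 probe sets, yet it is measured down to background on the induced side, where the background percentile was itself lower on average. It ranged from -1.19 to -0.90 with the constant added before the log and the arrays used, and the part of background in it was not tested.

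**Figure D2:**
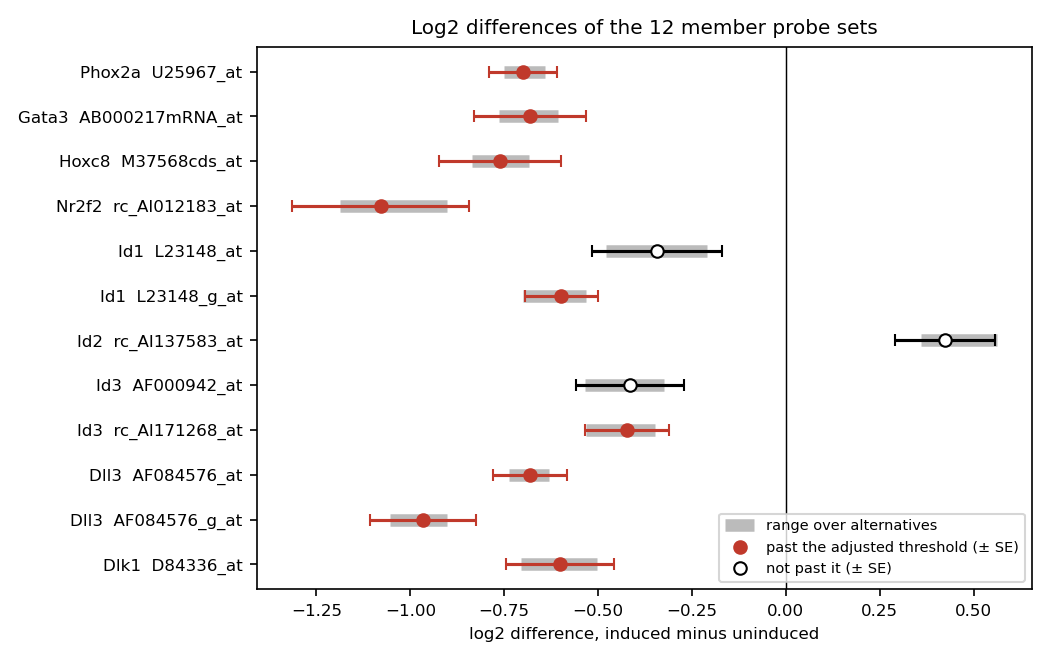
Log2 difference, induced minus uninduced, of each of the 12 probe sets (points, with the SE of the limma fit as a bar), and its range over 17 alternative settings in grey. Filled points are past the adjusted threshold, and Id2 is the only one above 0.

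Both Id1 and both Id3 probe sets had lower means in induced cells, with 1 of each past the threshold, and Id2 had a higher mean that was not past it. Id1 has 2 probe sets made from the same sequence record. The brighter one had signals of 6858, 8092, 6561 and 5952 in induced samples, against 10633, 9885, 10241 and 10586 in uninduced samples. The coefficient of variation was 13.1% in induced samples, against 3.37% in uninduced samples, and the groups were 1793 units apart at their nearest. Its log2 difference was -0.60 ± 0.10. The dimmer probe set had 351, 476, 618 and 454 in induced and 520, 589, 559 and 720 in uninduced samples. Those groups overlapped through induced replicate 3, and the difference of -0.34 ± 0.17 was not past the threshold.

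Id3 was read by 2 probe sets from different records. One had 3033, 3304, 2407 and 2585 in induced samples, against 3796, 3543, 3549 and 4240 in uninduced samples, with a log2 difference of -0.42 ± 0.11. The other had 1185, 1353, 873 and 885 in induced samples, against 1505, 1495, 1343 and 1306 in uninduced samples, and differed by -0.42 ± 0.14. The sizes were alike, but the groups of the second probe set overlapped through induced replicate 2 and it was not past the threshold. The call on the first was weak: of the 8 fits without 1 array it remained only without induced replicate 2 (-0.50), and its lowest size was -0.35, without induced replicate 3. In both probe sets, induced replicates 3 and 4 were the lowest.

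Id2, which in sympathetic and other neural precursors is known to restrain differentiation and to be a partner of the retinoblastoma protein, had a higher mean in induced cells. Its signals were 3936, 3348, 4214 and 3502 in induced samples and 2511, 2524, 2550 and 3698 in uninduced samples. Uninduced replicates 1 to 3 lay between 2511 and 2550, while uninduced replicate 4 lay among the induced samples. The means were 3750 ± 397 in induced and 2821 ± 585 in uninduced cells (SD, n = 4 each), and the log2 difference, 0.42 ± 0.13, was not past the threshold. Without uninduced replicate 4 it was 0.56 ± 0.10 and past it, and in each of the other 16 alternatives it was not.

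Ratios within an array depend little on how the arrays were scaled. The log2 ratio of Id2 to the brighter Id1 probe set, set to an average of 0 in uninduced samples, was 1.09, 0.62, 1.25 and 1.13 in induced replicates 1 to 4, against -0.19, -0.08, -0.11 and 0.38 in uninduced replicates 1 to 4. All induced samples were above all uninduced ones, uninduced replicate 4 included. Relative to the dimmer Id1 probe set the induced mean was 0.77 ± 0.33, and relative to the called Id3 probe set 0.85 ± 0.32 (SD, n = 4), also without overlap. Relative to the second Id3 probe set it was 0.84 ± 0.41, and there induced replicate 2 (0.33) lay below uninduced replicate 4 (0.52). The genes were chosen with these differences known, so the ratios are a description of the same values and add no evidence for them.

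**Figure D3:**
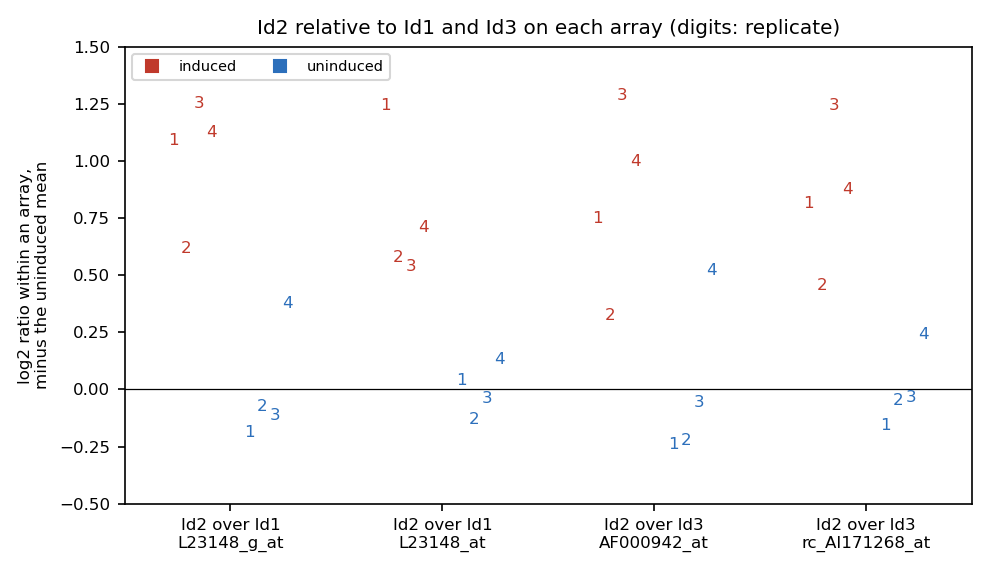
Log2 ratio of Id2 to each Id1 and Id3 probe set on the same array (y axis), minus its mean over the uninduced samples, with a digit for each replicate. Induced samples lie above uninduced ones in 3 of the 4 ratios. Induced replicate 2 and uninduced replicate 4 come closest or cross, except relative to the dimmer Id1 probe set. There induced replicate 3 (0.54) comes closest to uninduced replicate 4 (0.13).

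Dll3, which in mice acts inside the cell to dampen Notch signalling rather than as an activating ligand, had 2 probe sets from the same record and both were lower. The brighter had 1168, 1282, 1271 and 1399 in induced samples, against 2277, 2032, 2096 and 1831 in uninduced samples. The dimmer had 284, 346, 391 and 289 in induced samples, against 706, 643, 637 and 584 in uninduced samples. Neither showed overlap, with the nearest samples 431 and 193 units apart. The log2 differences were -0.68 ± 0.10 and -0.97 ± 0.14, and both were past the threshold in all 17 alternatives. The log2 ratio of the dimmer to the brighter probe set was on average 0.29 lower in induced samples, from 0.01 to 0.58 lower, and its groups overlapped through induced replicate 3.

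Dlk1, a transmembrane protein with epidermal growth factor repeats, had 3476, 3812, 5143 and 4799 in induced samples, against 6439, 5189, 7582 and 6848 in uninduced samples. The groups were separate by only 45.9 units, between induced replicate 3 and uninduced replicate 2. The means were 4307 ± 791 in induced and 6514 ± 1002 in uninduced cells (SD, n = 4 each), and the log2 difference was -0.60 ± 0.14. It kept between -0.71 and -0.50 over the alternatives, but stayed past the threshold in only 3 of the 8 fits without 1 array. It was not past it without induced replicate 1 (-0.50) or 2 (-0.55), or without uninduced replicate 1 (-0.60), 3 (-0.52) or 4 (-0.57).

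**Figure D4:**
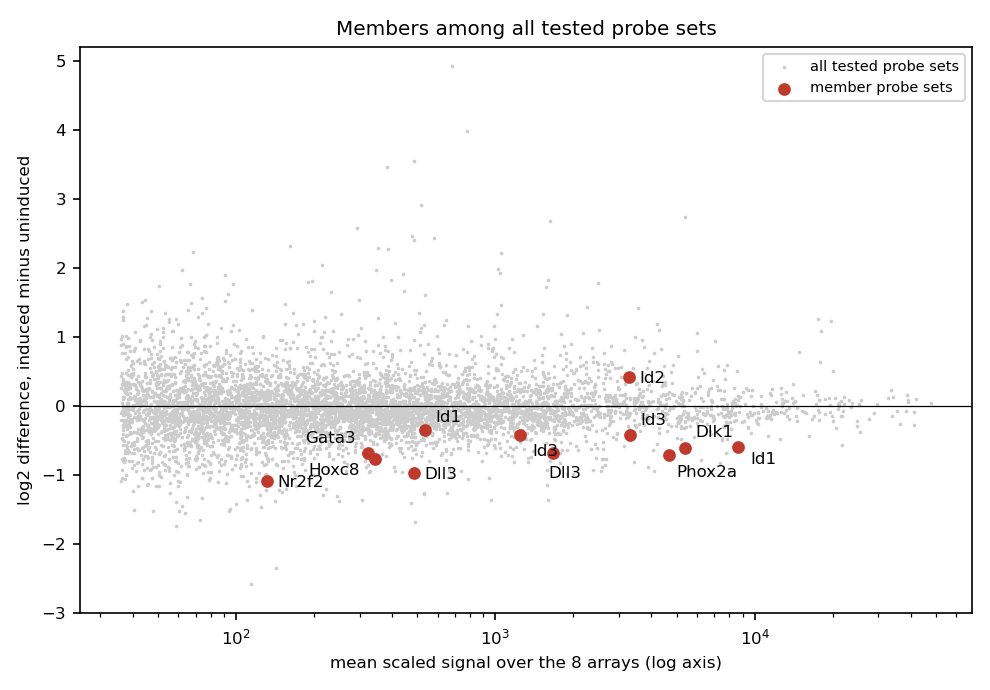
Log2 difference, induced minus uninduced (y axis), against the mean scaled signal over the 8 arrays (log axis) for all 6129 tested probe sets in grey and the 12 of the 9 genes in red. The red points run from -1.08 (Nr2f2) to 0.42 (Id2).

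Within the groups the 9 genes did not share 1 pattern. Over the 66 pairs of probe sets, the Pearson correlation of deviations from the group means on the 8 arrays had a median of 0.02 and ran from -0.79, for Dlk1 with the second Id3 probe set, to 0.92, for Nr2f2 with Id2. Gata3 and the brighter Dll3 probe set varied together (0.87), as did Hoxc8 and Nr2f2 (0.86). Hoxc8, Nr2f2, Id2, the dimmer Id1 and the called Id3 probe set were each highest in uninduced replicate 4 among the uninduced samples. The 2 probe sets of a gene correlated at 0.73 for Id3, 0.36 for Dll3 and -0.03 for Id1. With 8 arrays, and with scaling and labelling shared by all probe sets of an array, these are descriptions.

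Over the 8 arrays, the genes whose log2 signal ran most like that of a member were named by Pearson correlation, 2 for each. For Phox2a they were Slc29a1, a nucleoside transporter (0.997), and Mcm7 (0.987). For Gata3 they were Cxxc5 (0.983) and Adgrl1 (0.977), and Cxxc5 (0.985) came first for Dll3 too, before Ilkap (0.971). For Hoxc8 they were Nr3c1, the glucocorticoid receptor (0.984), and Adgrl2 (0.983), and for Nr2f2 they were Tmem53 (0.973) and Atp2b2 (0.972). For Id1 they were Mtarc2 (0.986) and Psmb9 (0.979), for Id3 Trap1 (0.984) and Gabra3 (0.962), and for Dlk1 Amn (0.970) and Hipk3 (0.965). For Id2 they were Cltc, the clathrin heavy chain (0.990), and Arfrp1 (0.965). The difference between the groups is part of this likeness. The genes were picked as the closest on the same 8 arrays, so a high correlation is built in. Mean signals of Nr3c1 and Tmem53 lay under the background percentile of every array in both groups, and those of Atp2b2 and Gabra3 did so in induced cells. Slc29a1 was itself lower in induced cells (log2 difference -1.06 ± 0.12, limma adjusted p = 0.00012), while Cltc differed by 0.41 ± 0.14 (adjusted p = 0.13).

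No other transcription factor of the sympathoadrenal list was past the threshold. Of 9 tested probe sets of 7 genes, 0 were past the adjusted threshold of limma, against 7.06% of all tested probe sets. Their median log2 difference was -0.26, and 3 had an unadjusted p under 0.05. Unadjusted counts, here and in the lists below, have no share over all probe sets beside them, so nothing follows from them. Of the 15 probe sets of this list on the array, 9 were below background on all arrays and 5 above it on all. Nr2f6, a relative of Nr2f2, had 1048 ± 34.6 in induced and 1278 ± 64.3 in uninduced cells (SD, n = 4 each), and the log2 difference was -0.28 ± 0.09 (adjusted p = 0.092). Larger sizes stood at lower signals, from -0.66 ± 0.21 for Arnt2 (adjusted p = 0.098) to -1.09 ± 0.57 for a dim probe set of Nr3c1 (adjusted p = 0.36), both looked at after their values were seen. Hand2, a bHLH factor that acts beside Phox2a in this lineage, differed by -0.18 ± 0.24 (adjusted p = 0.80). Homeobox genes outside the 9 had 0 of 15 tested probe sets past the threshold and 0 at an unadjusted p under 0.05. Over all tested probe sets 7.06% were past the threshold. Of the 28 homeobox probe sets on the array, 21 were below background on all arrays and 3 above it on all. The brightest genes of this list were Isl1 and Lhx2. Isl1, a LIM-homeodomain factor of sympathetic neurons that is also in the sympathoadrenal list, differed by -0.26 ± 0.16 (adjusted p = 0.44). Lhx2 differed by -0.27 ± 0.17 (adjusted p = 0.46).

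Among other Notch pathway genes, 2 of 26 tested probe sets of 18 genes were higher and 0 lower (7.69%, against 7.06% of all probe sets), with a median of -0.03. Both belong to Aph1a, a subunit of gamma-secretase, which had 3497 ± 268 in induced and 2602 ± 167 in uninduced cells (SD, n = 4 each; log2 difference 0.42 ± 0.09, adjusted p = 0.012) and 0.45 ± 0.11 in its other probe set (adjusted p = 0.030). The call on that other probe set held in 3 of the 8 fits without 1 array, the lowest size being 0.37, without induced replicate 3. The other genes include the receptors Notch1, Notch2 and Notch4, the ligands Dll1 and Jag2, and the targets Hes1 and Hes5. Mean signals of Notch2 (81 in induced and 72 in uninduced cells) and Notch4 (69 and 79) lay under the background percentile of every array. Hes1 differed by 0.26 ± 0.10 (adjusted p = 0.19) and 0.56 ± 0.18 (adjusted p = 0.099) in its 2 probe sets. Hes5, at low signals, differed by -0.89 ± 0.41 (adjusted p = 0.28) and -0.61 ± 0.46 (adjusted p = 0.56). In all, 5 probe sets of the list had an unadjusted p under 0.05, and the number called was 0 with median centring over all probe sets, without a trend and without replicate 2 of both groups. Ctbp1, a co-repressor and the brightest of the list, differed by -0.17 ± 0.09 (adjusted p = 0.38).

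Among bHLH factors outside the 9 genes, 1 of 18 tested probe sets was higher and 1 lower, 11.1% against 7.06% of all probe sets (4.1% higher and 2.97% lower). This list too was chosen with earlier results known, so nothing follows from these shares. At an unadjusted p under 0.05 there were 7. Hes1, Hes2, Hes3 and Hes5 are also in the Notch list, and Hand1 and Hand2 in the sympathoadrenal list, so the counts of these lists are not separate. Bhlhe40, a circadian and stress-responsive repressor, rose, with 394, 351, 385 and 373 in induced samples against 202, 171, 177 and 208 in uninduced samples (log2 difference 0.97 ± 0.15, adjusted p = 0.0014). Bhlhe41, its close relative, fell, with 321, 269, 294 and 232 in induced samples against 425, 582, 524 and 650 in uninduced samples (-0.94 ± 0.16, adjusted p = 0.0038). Both calls held in all 17 alternatives. Tcf3, Tcf4 and Tcf12, the E proteins that Id proteins bind, were not past the threshold, with the lowest value in a probe set of Tcf3 (-0.40 ± 0.17, adjusted p = 0.23). Genes of bone morphogenetic protein and Smad signalling, a known inducer of Id genes, had 0 of 29 tested probe sets past the threshold. Over all tested probe sets 7.06% were past it. Of the 45 probe sets of that list on the array, 22 were below background on all arrays and 10 above it on all. At an unadjusted p under 0.05 there were 2. Those 2 were the probe sets of Smad1, looked at after their values were seen, with differences of 0.59 ± 0.17 (adjusted p = 0.059) and 0.63 ± 0.19 (adjusted p = 0.086). The brightest genes of that list, Smad2 and Inha, differed by -0.08 ± 0.11 (adjusted p = 0.80) and -0.09 ± 0.16 (adjusted p = 0.86).

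Among effector genes of chromaffin and noradrenergic cells, Ret, Gap43, Scg3 and Ngfr had probe sets past the threshold. Of 31 tested probe sets, 6 of 4 genes were higher and 0 lower, 19.4% of the list against 7.06% of all probe sets. The median was -0.07 over the list. The list was chosen with earlier results of these data known, so nothing follows from that comparison of shares, and 3 of the 6 belong to Ret. The number past the threshold was 1 without replicate 2 of both groups, 2 without a trend and 3 with median centring over all probe sets. It was also 3 without induced replicate 2 or uninduced replicate 2. At an unadjusted p under 0.05 there were 8, the others being Prph, a neuronal intermediate filament (-0.28 ± 0.10), and Chrna7, a nicotinic receptor subunit (-0.49 ± 0.18), both looked at after their values were seen. Ret, the signalling receptor for GDNF family ligands, rose in all 3 of its probe sets, by 2.05 ± 0.22, 0.96 ± 0.17 and 1.09 ± 0.28 (adjusted p = 0.00013, 0.0041 and 0.037). The brightest of these had 558, 706, 492 and 847 in induced samples, against 350, 299, 308 and 341 in uninduced samples. Gap43, a growth cone protein, rose by 0.61 ± 0.13 (adjusted p = 0.012), Scg3, a granin, by 0.57 ± 0.13 (0.022) and Ngfr, the p75 neurotrophin receptor, by 0.45 ± 0.11 (0.027). Another probe set of Ngfr differed by -0.33 ± 0.16 (adjusted p = 0.32). Nefm and Chgb, the brightest of the list, differed by 0.07 ± 0.10 (adjusted p = 0.81) and 0.16 ± 0.11 (adjusted p = 0.50). Th and Pnmt, not past the threshold, differed by -0.20 ± 0.51 (adjusted p = 0.91) and -0.14 ± 0.21 (0.83). Nor were Slc18a1, at -0.16 ± 0.22 (0.80), and Slc6a2, at 0.04 ± 0.27 (0.97), past it. Th was above background on only 1 of the 8 arrays. Slc6a2, with means of 132 in induced and 126 in uninduced cells, lay near the background percentiles of 102 to 183. The differences of Th and Slc6a2 therefore say little. In the fits without 1 array Scg3 held in 3 of 8, Ngfr in 4 and the third Ret probe set in 1, with lowest sizes of 0.50 (without uninduced replicate 1), 0.39 (without uninduced replicate 4) and 0.90 (without uninduced replicate 3).

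**Figure D5:**
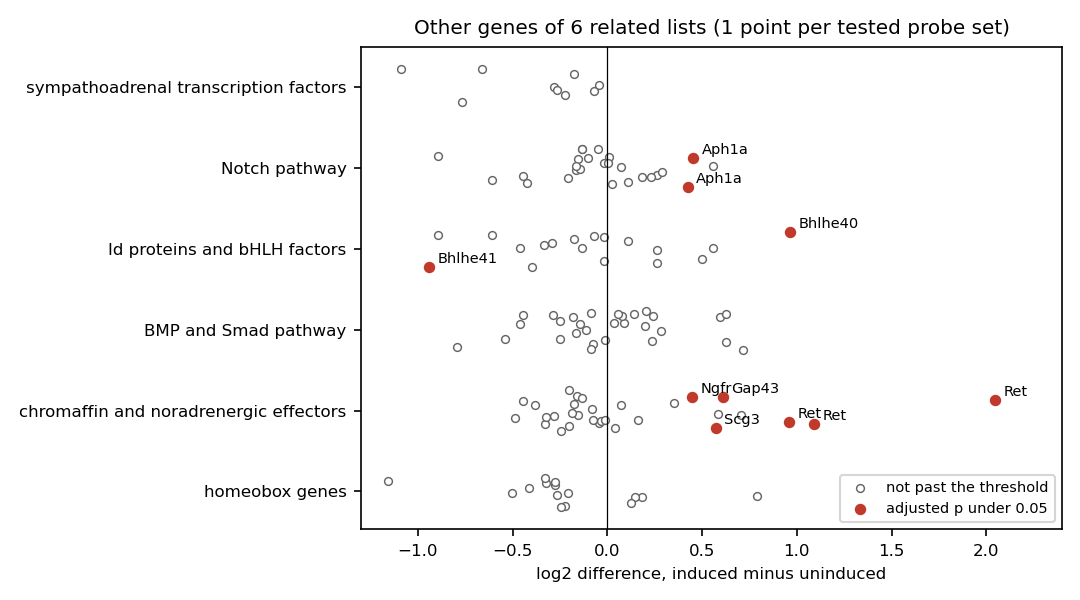
Log2 difference, induced minus uninduced (x axis), of tested probe sets of genes outside the 9 in 6 related lists, with 1 point per probe set. Filled, named points are past the adjusted threshold (Aph1a, Bhlhe40, Bhlhe41, Ret, Gap43, Scg3 and Ngfr).

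Of 6 tested probe sets of chromaffin markers, 1 was lower, 1 was higher and 4 were not past the threshold (Scg2, Chgb, Slc18a1 and Th). Over all tested probe sets 7.06% were past it. The lower one was Phox2a, itself among the 9 genes chosen on this contrast. The higher one was Vgf, a granin-like neuropeptide precursor (2.74 ± 0.10, limma adjusted p = 2.9e-08). Both probe sets of Slc18a2 were under background on all 8 arrays. Markers of other cell types were low or mixed. The summed signal of 26 fibroblast probe sets was 6787 to 8342 in induced and 6476 to 8076 in uninduced samples. Of 10 genes, 3 (Col1a1, Col3a1 and Thy1) were above background on all arrays. Past the threshold were 2 probe sets of Col1a1 (0.71 ± 0.17 and 1.05 ± 0.26, limma adjusted p = 0.024 and 0.030). Other probe sets of Col1a1 were not, with 0.70 ± 0.21 (adjusted p = 0.071) and 0.13 ± 0.21 (adjusted p = 0.84). Schwann cell and glial markers summed to 1118 to 1483 in induced and 864 to 1255 in uninduced samples, with 1 of 7 tested probe sets higher (Pmp22, 0.81 ± 0.18, adjusted p = 0.016). Another probe set of Pmp22, under background on all arrays, differed by -0.37 ± 0.49 (adjusted p = 0.79). Of these markers, Pmp22 and Mag each had a probe set above background on all 8 arrays, that of Mag with signals from 157 to 305. Sox10, a defining factor of Schwann cells, had signals from 1.3 to 16.9, all under background. Leukocyte markers summed to 236 to 637 in induced and 262 to 485 in uninduced samples, and adrenal cortex markers to 105 to 249 in induced and 136 to 296 in uninduced samples, with 0 tested probe sets past the threshold. Among them only Cd4, a leukocyte marker, was above background on all 8 arrays, with signals from 124 to 290. The part of these markers in the differences of the 9 genes was not tested.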

How the data were processed

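RNA of 8 samples was measured on 8 Affymetrix arrays of rat probe sets. The deposited values are intensities, 1 scaled linear signal per probe set and array. All arrays had a 2% trimmed mean of 501, so the authors had scaled them. Which program did so is not given in the sources used here. Of the probe sets, 7018 had a single gene symbol in the array annotation, 308 had several and 1473 had none.

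A constant of 7 (the 10th percentile of the table, rounded) was added before log2 was taken. Tests left out 59 control probe sets and 2611 others whose mean was under 36.0, the 30th percentile. The model, lmFit and eBayes of limma 3.58.1 under R 4.3.3, used a trend of variance on signal, and p-values of 6129 probe sets were adjusted by Benjamini-Hochberg. Degrees of freedom were 6 (residual) and 5.77 (prior). Errors of log2 differences are SEs of this fit, and errors of signals are SDs. The number of arrays limits the precision.

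The 9 genes and the related lists were chosen with earlier results of these data known, so nothing follows from their shares of called probe sets. In each list, genes past the threshold (at most 6) and the 2 with the highest mean signal were named, and other names were chosen after values were seen. Same-numbered samples of the 2 groups did not vary together (r = -0.14, 0.06, -0.09 and 0.19 for replicates 1 to 4), so no pairing was used. Coordinates and promoter sequences are RefSeq's, for GRCr8.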

Additional observations from a re-analysis of the deposited data

Results flagged for a closer look

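Of the 24 groups of 4 samples formed by the 12 probe sets, 1 held a sample that stood apart from the other 3, by Dixon's test at 95%. Chance gives about 1 such group in 20. It was Id2 in uninduced replicate 4, with a signal of 3698 against 2550 in the nearest other uninduced sample, a gap of 0.967 of the group's whole range. On the same array Nr2f2 (243), Hoxc8 (506), the dimmer Id1 probe set (720) and the called Id3 probe set (4240) were also the highest of their uninduced samples.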

How the results depend on the processing

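No direction among the 12 probe sets of the 9 genes reversed in any of the 17 alternatives. Of these, median centring over the tested probe sets alone was added after seeing the data. The number past the threshold, 9, was 5 with median centring over all probe sets and 5 without replicate 2 of both groups, which have another wording of the source label. Without 1 array it was 5 (without uninduced replicate 3) to 9. Phox2a and both Dll3 probe sets passed in all 17 and Nr2f2 in 16. The called Id1 probe set lost its call only with median centring over all probe sets, the called Id3 probe set in 13, Dlk1 in 7, Gata3 in 4 and Hoxc8 in 3. Averaged over a gene's probe sets, the log2 difference was -0.47 for Id1, -0.42 for Id3 and -0.82 for Dll3. Of all probe sets, 433 were called, 182 lower and 251 higher. Median centring over all probe sets called 230 (63 lower and 167 higher, 72.6% higher against 58.0%), fits without a trend 279 (101 lower), and those without replicate 2 of both groups 221 (80 lower, 141 higher). Without 1 array the total was 313 to 408, with 112 to 164 lower (119 without uninduced replicate 2) and 191 to 244 higher. The 10 calls of the related lists became 5 with median centring over all probe sets, 6 without a trend, 3 without replicate 2 of both groups and 6 to 10 without 1 array. Fits without a trend called 1 probe set of the other sympathoadrenal factors, and 1 of the bone morphogenetic protein list was called by them, by quantile normalization and by median centring over the tested probe sets. With the replicate block, 367 probe sets were called, 7 of the 12 (Gata3 and Id3 lost) and 8 of the related lists. Nr2f2, near background, is the value that signal over background limits most.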
